A study of Homo sapiens with 6 samples.

Results

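The genes described here are the protein-coding members of 11 clustered gene families of human chromosome 19, a chromosome also known for its large arrays of zinc finger genes. The rule used position and name and no value of the lists: a gene had to lie on chromosome 19 of hg38 in GENCODE release 44, with a symbol starting with PSG, CEACAM, SIGLEC, LILR, KIR2D, KIR3D, KLK, CYP2, CYP4F, FPR, LGALS or IFNL followed by a number or letter. This gave 90 genes of the 1476 protein-coding genes of the chromosome and of 20033 in the nuclear genome. KIR2D and KIR3D genes were taken as 1 family, KIR. Zinc finger (ZNF) and olfactory receptor (OR) genes were left out by the rule and serve as comparison lists. The ZNF list holds symbols of ZNF followed by a number. Zinc finger genes under other symbols were counted among the remaining genes of the chromosome. For each gene, the reading is whether its transcription start lay in a called H3K9me3 domain, and how far it was from the nearest edge of one.

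The lists come from H3K9me3 chromatin immunoprecipitation and sequencing of MCF10.DCIS.com monolayers. This human breast epithelial line derives from MCF10A cells by transformation with oncogenic H-RAS and models the passage from ductal carcinoma in situ to invasive disease. All libraries came from this 1 line. The control monolayers carried the lentiviral empty vector pSLIK-neo-EV, and the RAB5A monolayers carried pSLIK-neo-RAB5A, a doxycycline-inducible construct for RAB5A. RAB5A is an endosomal GTPase whose elevated expression makes jammed epithelial monolayers fluid. The labels of the RAB5A libraries state RAB5A overexpression and give no dose or time of doxycycline. Each condition had 2 libraries, replicate 1 with the antibody ab176916 and replicate 2 with ab8898, so n = 2 per condition, the replicates differ by antibody, and no label says that they came from separate cultures. The study asked whether the mechanical stress of fluid monolayers changes constitutive heterochromatin. Domains were called over bins of 200 kb, which is the resolution of each position and distance below, and the read depth of each library is unknown.

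H3K9me3 is the histone mark of constitutive heterochromatin, which keeps satellite repeats, transposons and many gene clusters compact and silent. On chromosome 19 it is known to cover arrays of ZNF genes, where zinc finger proteins help to bring in the enzymes that place it. The families studied here arose, like the ZNF arrays, largely by tandem duplication, and many members lie in clusters with copies of like sequence. SIGLEC, LILR, KIR and FPR genes encode receptors of blood cells, PSG and several LGALS genes are expressed in the placenta, KLK genes encode secreted serine proteases, CYP2 and CYP4F genes encode cytochrome P450 enzymes, CEACAM genes encode adhesion molecules, and IFNL genes encode the interferon lambda cytokines. The lists give no expression level, so whether a gene was silent in these cells was not measured.

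The likeness between some members of a family is shown by the bases upstream of 4 pairs of members, each written 5′ to 3′ on the strand of its gene, with the longest exact run that the pair shares in capitals. They are the 250 bases before the RefSeq start on hg38, and each was identical to the hg38 sequence at its coordinates. The pairs were chosen after their identity had been computed. The first pair lies inside a domain in every library: KIR2DL3 (chr19:54738263-54738512, plus strand) and KIR3DL2 (chr19:54850193-54850442, plus strand), receptors of natural killer cells for class I HLA molecules. They were 96.4% identical over this stretch, with a shared run of 161 bases.
KIR2DL3: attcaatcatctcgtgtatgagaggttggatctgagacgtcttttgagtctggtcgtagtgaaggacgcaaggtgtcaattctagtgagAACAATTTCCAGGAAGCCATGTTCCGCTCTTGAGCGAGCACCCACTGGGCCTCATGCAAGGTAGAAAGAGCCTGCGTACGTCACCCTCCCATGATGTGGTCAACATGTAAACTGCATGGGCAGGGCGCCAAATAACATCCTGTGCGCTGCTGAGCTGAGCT
KIR3DL2: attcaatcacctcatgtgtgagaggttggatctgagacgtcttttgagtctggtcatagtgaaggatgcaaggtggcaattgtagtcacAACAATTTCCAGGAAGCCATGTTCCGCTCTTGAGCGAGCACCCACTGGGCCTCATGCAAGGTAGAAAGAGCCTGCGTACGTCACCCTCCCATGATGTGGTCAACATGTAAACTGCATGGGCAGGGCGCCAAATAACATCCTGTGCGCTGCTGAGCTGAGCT

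A second pair inside the same domain was SIGLEC5 (chr19:51630402-51630651, minus strand) and SIGLEC14 (chr19:51646826-51647075, minus strand), an inhibitory and an activating receptor for sialic acid on myeloid cells. These were 85.2% identical, with a shared run of 113 bases that reached the start.
SIGLEC5: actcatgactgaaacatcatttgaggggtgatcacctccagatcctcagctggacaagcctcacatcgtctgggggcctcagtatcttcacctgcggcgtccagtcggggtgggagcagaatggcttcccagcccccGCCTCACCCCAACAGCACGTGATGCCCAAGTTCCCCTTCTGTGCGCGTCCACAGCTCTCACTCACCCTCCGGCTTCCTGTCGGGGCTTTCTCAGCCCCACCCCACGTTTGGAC
SIGLEC14: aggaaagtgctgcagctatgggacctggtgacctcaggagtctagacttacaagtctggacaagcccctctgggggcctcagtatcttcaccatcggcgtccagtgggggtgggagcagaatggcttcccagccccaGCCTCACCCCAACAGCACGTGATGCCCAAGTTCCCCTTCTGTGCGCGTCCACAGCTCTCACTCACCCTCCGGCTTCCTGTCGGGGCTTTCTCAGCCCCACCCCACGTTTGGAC

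The third pair is shown because it straddles the domain edge. SIGLEC9 (chr19:51124630-51124879, plus strand), a receptor of neutrophils and monocytes, lay outside, and the upstream stretch most like its own among the family was that of SIGLEC12 (chr19:51501801-51502050, minus strand), which lay inside. These were 68.4% identical, with a shared run of 21 bases.
SIGLEC9: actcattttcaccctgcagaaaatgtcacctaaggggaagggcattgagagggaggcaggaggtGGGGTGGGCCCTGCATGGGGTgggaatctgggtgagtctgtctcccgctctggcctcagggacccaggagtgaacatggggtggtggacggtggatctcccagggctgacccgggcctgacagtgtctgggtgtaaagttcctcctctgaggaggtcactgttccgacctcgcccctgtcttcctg
SIGLEC12: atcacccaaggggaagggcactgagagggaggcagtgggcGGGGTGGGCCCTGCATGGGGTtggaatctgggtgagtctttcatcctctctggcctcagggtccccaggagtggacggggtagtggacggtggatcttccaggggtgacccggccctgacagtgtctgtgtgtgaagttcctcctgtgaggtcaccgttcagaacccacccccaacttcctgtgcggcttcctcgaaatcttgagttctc

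The fourth pair lay outside the domains in every library. IFNL2 (chr19:39268146-39268395, plus strand) and IFNL3 (chr19:39245251-39245500, minus strand), cytokines that act mainly on epithelial cells, were 99.6% identical, with 1 base difference and a shared run of 219 bases. The shared runs of the KIR, the SIGLEC5 and SIGLEC14 and the IFNL pairs were longer than the 75-base reads.
IFNL2: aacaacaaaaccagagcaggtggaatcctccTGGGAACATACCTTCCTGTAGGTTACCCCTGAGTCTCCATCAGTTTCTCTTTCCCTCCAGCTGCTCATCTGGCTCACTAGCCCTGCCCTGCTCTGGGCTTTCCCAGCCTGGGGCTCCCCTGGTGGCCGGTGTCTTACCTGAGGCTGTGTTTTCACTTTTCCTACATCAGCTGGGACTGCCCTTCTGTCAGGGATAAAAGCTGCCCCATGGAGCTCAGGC
IFNL3: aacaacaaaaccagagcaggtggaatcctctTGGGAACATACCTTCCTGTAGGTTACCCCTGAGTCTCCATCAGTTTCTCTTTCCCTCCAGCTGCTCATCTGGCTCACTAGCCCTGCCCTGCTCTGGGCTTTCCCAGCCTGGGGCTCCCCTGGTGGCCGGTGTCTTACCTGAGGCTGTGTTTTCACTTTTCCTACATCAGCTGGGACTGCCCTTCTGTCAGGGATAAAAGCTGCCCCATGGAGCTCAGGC

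The first comparison asked whether these families changed state with RAB5A. Of the 90 genes, 28 (31.1%) started in a domain in the control library of ab176916, 28 in that of ab8898, 28 in the RAB5A library of ab176916 and 28 in that of ab8898. These were the same 28 genes: 28 were inside in all 4 libraries, 62 in none, and 0 in some libraries only. The distance to the nearest domain was also the same in all 4 libraries for each of the 90 genes. Control libraries thus had a mean of 28 ± 0 genes inside and RAB5A libraries likewise 28 ± 0 (SD, n = 2 per condition). An exact permutation test (two-sided) gave p = 1, and 6 labellings of 4 libraries cannot give a p under 0.33. The median distance to a domain, counting a gene inside as 0, was 0.575 Mb in each library, and the mean over families of the share inside was 33.8% in each (difference 0 and p = 1 for both, by the same exact test). No gene of these families passed into or out of a domain with RAB5A or with the antibody. An equal call does not show an equal signal, since a change within a domain, or one smaller than the bin, cannot be seen in the lists.

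The share inside has to be read against that of other genes. Over all 20033 protein-coding genes, 7.20% and 7.57% started in a domain in the control libraries (ab176916 and ab8898) and 7.21% and 8.15% in the RAB5A libraries. Chromosome 19 is rich in these domains: of its 1476 genes, 25.8% and 27.0% were inside in control and 25.9% and 27.0% in RAB5A. The 31.1% of the family members therefore stood near the share of their chromosome. It lay between that of the 249 ZNF genes of chromosome 19 (77.5% to 79.5%) and that of the 1117 remaining genes of the chromosome (13.6% to 14.7%), and 8 of 20 OR genes (40.0%) were inside in every library. While 0 of the 90 members differed among the libraries, 193 ZNF genes were inside in all 4 and 5 more were inside in the ab8898 libraries of both conditions. No test was made of these shares, because neighbouring genes share a domain and are not independent.

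**Figure D1:**
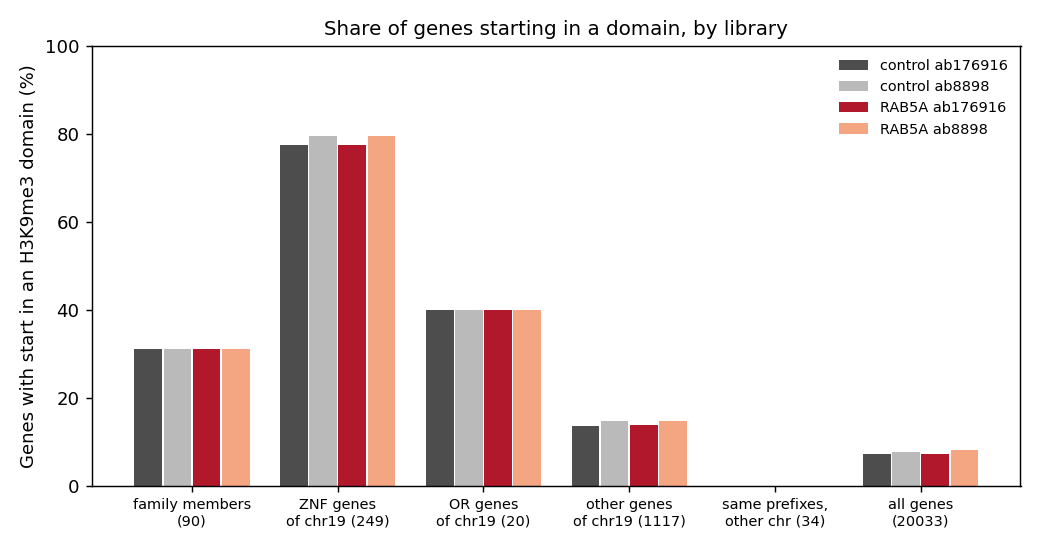
Bars give the percent of genes that start in an H3K9me3 domain, for each of the 4 libraries, in the family members, in comparison lists and in all protein-coding genes; the number of genes is in parentheses. The members' bars stand at 31.1% in each library, below those of the ZNF genes (77.5% to 79.5%) and above those of the other genes of the chromosome (13.6% to 14.7%), and no gene with the same prefixes on other chromosomes was inside.

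The families differed sharply from one another. In 3 families, FPR (3 of 3), LILR (10 of 10) and KIR (7 of 7), each member was inside in all 4 libraries. In 6 families no member was inside in any library: PSG (0 of 10), KLK (0 of 15), CYP2 (0 of 6), CYP4F (0 of 6), LGALS (0 of 6) and IFNL (0 of 4). Only SIGLEC (7 of 11, 63.6%) and CEACAM (1 of 12, 8.33%) lay on both sides. Counted as bins, the members occupied 29 bins of 200 kb, of which 8 were inside and 21 outside. On the whole chromosome, 102 bins were in a domain of all 4 libraries and 188 in none. By bin, the share inside was thus not higher among the members than on their chromosome.

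**Figure D2:**
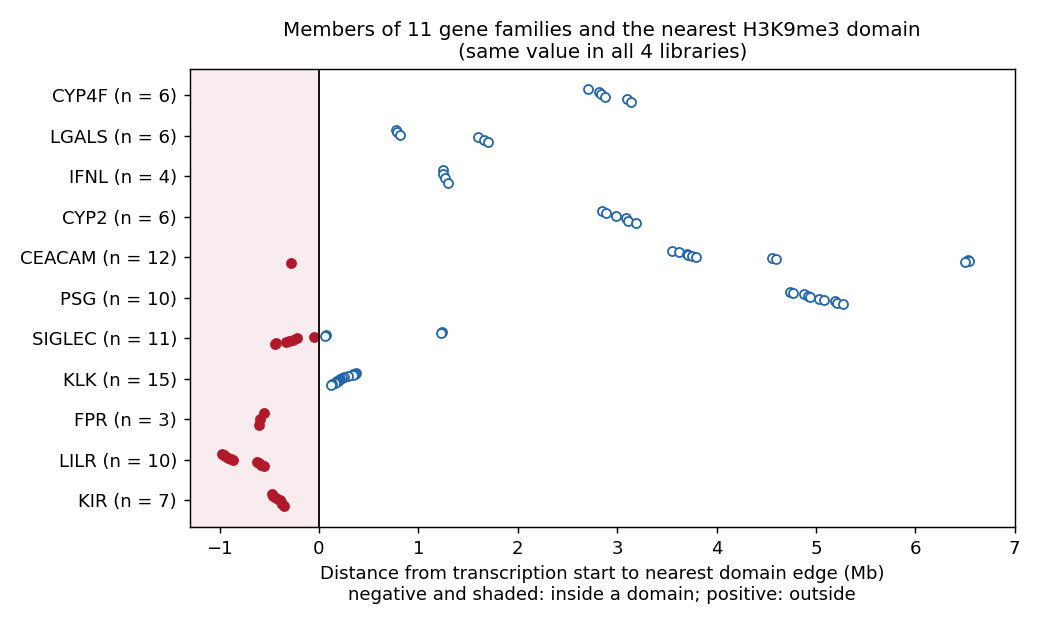
Each point is 1 gene, placed by the distance in Mb from its transcription start to the nearest domain edge, with one row per family; filled points at negative values in the shaded area are inside a domain, and open points at positive values are outside. The value was the same in all 4 libraries, and only the SIGLEC and CEACAM rows have points on both sides of 0, with KLK and 2 SIGLEC genes just outside.

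All 28 genes inside lay in the same domain, chr19:51200001-55200000, which was called with the same start and end in each of the 4 libraries. It spanned 4.00 Mb. The authors' score of this domain, which has no stated unit, was 25.1 in the control library of ab176916, 31.6 in that of ab8898, 24.8 in the RAB5A library of ab176916 and 29.5 in that of ab8898. It ranked 13 of 78, 12 of 76, 16 of 79 and 11 of 76 among the domains of those lists. By score per bin it ranked lower, at 24, 18, 28 and 20 in the same order. The scores were higher with ab8898 than with ab176916 in both conditions, and scores of different lists are not on a shared scale. The domain held 124 protein-coding gene starts, of which 28 (22.6%) were members, 40 (32.3%) ZNF genes and 0 OR genes. The other 6 domains that each library had on chromosome 19 held 0 members.

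Within the domain the order along the chromosome was SIGLEC and CEACAM18 first, then FPR, then a stretch of 2419 kb with no member, then LILR and KIR. This stretch held 39 of the 40 ZNF starts. The remaining one lay between the domain start and the last FPR gene, and 0 lay between the first LILR gene and the domain end. The 28 members were thus split around the ZNF array, with 11 on the side of the SIGLEC genes and 17 on the side of the LILR and KIR genes.

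**Figure D3:**
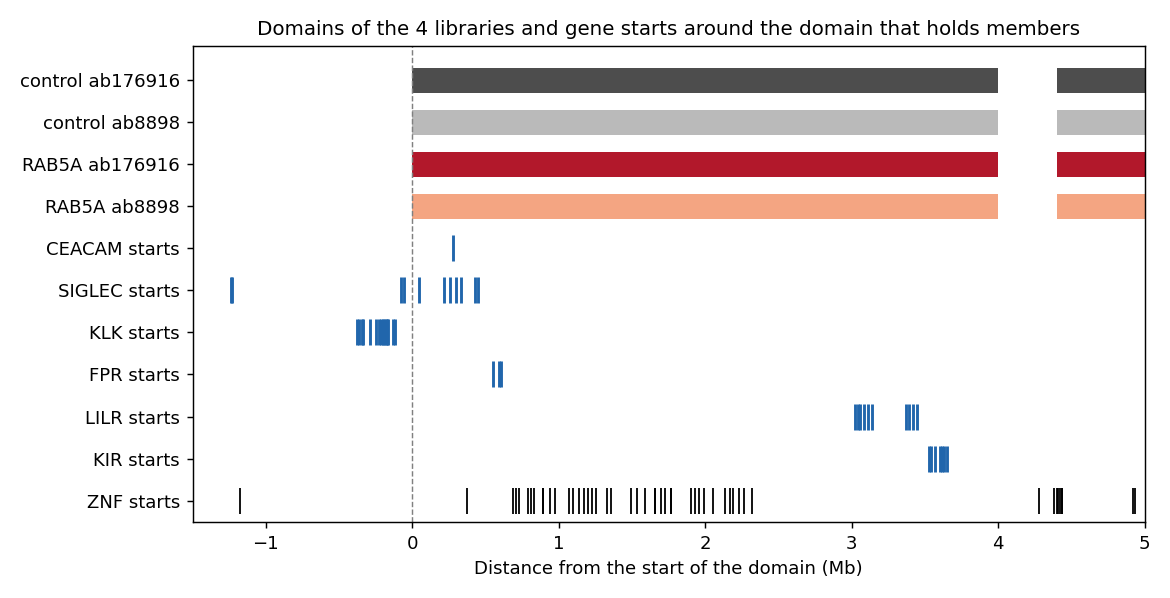
Horizontal bars are the domains of the 4 libraries and vertical ticks are transcription starts by family, against the distance in Mb from the start of the domain that holds the 28 members (dashed line at 0). The 4 bars start and end alike, the start falls within the SIGLEC cluster with the KLK cluster outside it, and the ZNF starts inside fill the gap between the FPR and the LILR genes.

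The SIGLEC genes encode lectins on immune cells that bind sialic acid, most of them inhibitory, and started at chr19:49961172-51646825. Inside were SIGLECL1, SIGLEC10, SIGLEC8, SIGLEC12, SIGLEC6, SIGLEC5 and SIGLEC14, in the order of their position, at depths of 46.3 to 447 kb from the edge. Outside were SIGLEC7 and SIGLEC9 by 57.7 and 75.1 kb, and SIGLEC16 and SIGLEC11 by 1230 and 1239 kb. The edge therefore fell in the 104 kb between the starts of SIGLEC7, a receptor of natural killer cells, and SIGLECL1. This is less than 1 bin, so the side on which SIGLEC7, SIGLEC9 and SIGLECL1 were placed rests on the position of the bin edge at 51200001. Of 3 relatives that the rule on names did not take, CD33, the founding myeloid member of the family, was inside in 4 of 4 libraries, while CD22 and MAG, which act on B cells and on myelin, lay 881 and 908 kb outside in each library.

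The coding sequence of SIGLEC7 was most like that of SIGLEC9 (84.2% identity), and both were outside. SIGLEC8, an eosinophil receptor, was most like SIGLEC7 (78.4%), and this pair lay on opposite sides. SIGLEC10 was most like SIGLEC11 (80.1%), again on opposite sides, with 218 kb inside for the former and 1239 kb outside for the latter. The closest relative by coding sequence thus lay on the same side for some members and on the opposite side for others.

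The KLK genes, which encode kallikrein-related serine proteases, formed the family nearest to a domain without entering one, with starts at chr19:50823787-51084245. Their 15 starts spanned 260 kb and lay outside by 116 kb (KLK14) to 376 kb (KLK1), with a median of 216 kb. KLK3, the gene of prostate-specific antigen, lay at 345 kb. KLK5 and KLK7, proteases of skin shedding, lay at 247 and 216 kb. Of the 15, 7 (KLK8 to KLK14) were within 200 kb, that is, within 1 bin of the domain. Over the 90 members, 9 were outside by at most 200 kb (these 7, SIGLEC7 and SIGLEC9), 1 was inside by less than 200 kb (SIGLECL1), and 42 were outside by more than 1 Mb. When each domain was widened by 1 bin, 37 members were inside, and when each was trimmed by 1 bin, 27 were.

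The FPR genes encode receptors of phagocytes for formyl peptides released by bacteria and mitochondria, and started at chr19:51752026-51804115. FPR2 lay 552 kb inside, FPR3 595 kb and FPR1 604 kb, in each library. The RefSeq starts of FPR2 and FPR1 lay 9154 and 52237 bases from the GENCODE starts used here, and were inside in all 4 libraries. The FPR genes had the most ZNF genes around them among the members inside. They had 11 to 13 ZNF starts within 500 kb, each of which was itself inside the domain.

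The LILR genes encode immunoglobulin-like receptors of leukocytes, in which LILRB genes are inhibitory and most LILRA genes activating, with starts at chr19:54223506-54643889. Inside were LILRB3, LILRA6, LILRB5, LILRB2, LILRA5, LILRA4, LILRA2, LILRA1, LILRB1 and LILRB4. Their depth ran from 556 kb (LILRB4) to 976 kb (LILRB3), with a median of 874 kb, the deepest of the families. All 10 lay deep in the same domain, so the calls could show no difference in state between activating and inhibitory members.

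The KIR genes encode receptors by which natural killer cells read class I HLA molecules; names with L mark mostly inhibitory forms and names with S activating ones; their starts lie at chr19:54724442-54850443. Inside were KIR3DL3, KIR2DL3, KIR2DL1, KIR2DL4, KIR3DL1, KIR2DS4 and KIR3DL2, at depths from 476 kb (KIR3DL3) to 350 kb (KIR3DL2), the last member before the far edge of the domain. KIR gene content differs between people, and these 7 are those of the reference chromosome. Which KIR genes the MCF10.DCIS.com cells carry was not determined here.

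LILR and KIR genes belong to the leukocyte receptor complex. Of 15 other genes of the complex, listed by name, 15 were inside in each of the 4 libraries. Among them were LAIR1 and LAIR2, and FCAR, the receptor for immunoglobulin A. NCR1, an activating receptor of natural killer cells, and GP6, the collagen receptor of platelets, were also among them. TTYH1, CDC42EP5 and RDH13, which are not immune receptors, were inside as well. The 9 NLRP genes of chromosome 19, which encode intracellular sensor and oocyte proteins, were inside in 4 of 4 libraries, and NLRP2 and NLRP7 are in both lists. Among the listed genes of the complex, being inside was therefore not particular to the LILR and KIR members. Over all protein-coding genes of chromosome 19, 25.8% to 27.0% were inside across the libraries. Neighbouring genes share a domain and are not independent, so 15 of 15 is not a count of separate events. The NLRP list was taken over the whole chromosome and not from this stretch, so its genes need not lie in the domain that holds the members.

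The CEACAM genes encode cell adhesion molecules of the carcinoembryonic antigen family, with starts over the wide stretch chr19:41549518-51478539. CEACAM18 was inside by 279 kb, between SIGLEC8 and SIGLEC12, far from its relatives. The other 11 were outside by 3550 kb (CEACAM21) to 6538 kb (CEACAM19), with a median of 3797 kb. CEACAM5, the carcinoembryonic antigen used as a tumour marker, lay at 3709 kb, CEACAM6 at 3751 kb and CEACAM1 at 4561 kb. CEACAM4, CEACAM7, CEACAM3 and CEACAM8 were among them, and CEACAM16, which encodes a protein of the inner ear, and CEACAM20 were at 6501 and 6530 kb. These were the members farthest from a domain.

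The PSG genes encode pregnancy-specific glycoproteins secreted by the placenta, and derive from the same ancestor as the CEACAM genes among which they lie, with starts at chr19:42740481-43269530. PSG3, PSG8, PSG1, PSG6, PSG7, PSG11, PSG2, PSG5, PSG4 and PSG9 were all outside in each library. Their distances ran from 4740 kb (PSG3) to 5270 kb (PSG9), with a median of 4982 kb. The end of the domain chr19:36200001-38000000 was the nearest edge for this family.

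The LGALS genes encode galectins, lectins that bind galactosides, with starts at chr19:38773517-39704481. LGALS7 and LGALS7B, copies of a galectin of stratified epithelia, were outside by 774 and 789 kb, and LGALS4, a galectin of the gut, by 813 kb. The placental galectins LGALS13, LGALS16 and LGALS14 were outside by 1603, 1656 and 1704 kb. The edge nearest to these genes was again chr19:36200001-38000000.

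The IFNL genes lie between both groups of galectins, with starts at chr19:39245250-39296407. IFNL3, IFNL4, IFNL2 and IFNL1 were outside by 1245, 1249, 1268 and 1296 kb in each library. Since the study dealt with the response of these cells to DNA in the cytosol, which induces interferon genes, genes of the interferon lambda receptor and its signalling were also placed. The receptor chain IFNLR1, on chromosome 1, lay 9188 to 9388 kb from a domain across the libraries, and its partner IL10RB, on chromosome 21, lay 6134 kb from one. TYK2, on chromosome 19, lay 581 kb from a domain, and IRF9, on chromosome 14, lay 439 to 1039 kb from one across the libraries.

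The cytochrome P450 genes lay in separate clusters, with CYP4F starts at chr19:15508525-15934867 and CYP2 starts at chr19:40850447-41193210. CYP4F22, CYP4F8, CYP4F3, CYP4F12, CYP4F2 and CYP4F11, which hydroxylate fatty acids, leukotrienes or vitamins, were outside by 2709 kb (CYP4F22, of the skin barrier) to 3135 kb (CYP4F11), beyond the end of chr19:11600001-12800000. The CYP2 genes CYP2A6, CYP2A7, CYP2B6, CYP2A13, CYP2F1 and CYP2S1 were outside by 2850 kb (CYP2A6, the enzyme that clears nicotine) to 3193 kb (CYP2S1). Both groups were thus outside by more than 2 Mb in each of the 4 libraries.

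Genes with the same prefixes on other chromosomes gave a further comparison. There were 34 of them, some of which share the letters but not the family, such as KLKB1, IFNLR1 and CYP27C1. Of these, 0 were inside in any library, against 7.20% to 8.15% of all protein-coding genes. CYP2U1, KLKB1 and CYP21A2 had no domain on their chromosome in at least 1 library, and could not be inside there. The nearest of the 34 were CYP27C1 on chromosome 2 at 220 kb and CYP24A1 on chromosome 20 at 226 kb. CYP2E1, a CYP2 gene of chromosome 10 that metabolises ethanol, lay at 1320 kb. The same held for 8 markers of mammary epithelium (KRT5, KRT14, KRT8, KRT18, CDH1, EPCAM, ITGA6 and TP63), of which 0 started in a domain in any library. A count of 0 among 8 genes says little beside the share over all genes. The lists hold no transcript level, so the marker count is no check of cell identity.

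The rule was worded around families beside zinc finger genes, so the distance to ZNF genes was measured. The nearest ZNF start was 595 kb away in the median over the 90 members, from 29.3 kb (CEACAM20) to 1245 kb (CYP4F11). Of the 34 members with a ZNF start within 500 kb, 11 were inside (32.4%), and 17 of the 56 with none were (30.4%). These 17 were the LILR and KIR genes, and all 28 members inside lay in the same domain. The genes are thus not independent, and a link between being near a ZNF gene and being inside was not tested. CEACAM20 had 13 ZNF starts within 500 kb, none of them in a domain, and was itself 6530 kb from one. FPR1 also had 13, all of them in the domain that holds it. CEACAM19 and CEACAM16, with 9 and 8 ZNF starts within 500 kb, were outside together with those ZNF genes.

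The state of the neighbouring ZNF genes went with the state of the member. Where the ZNF genes within 500 kb included one in a domain, 11 of 14 members were inside (78.6%), and the other 3 were SIGLEC7, SIGLEC9 and KLK14, the members nearest to the edge among those outside. Where none of them was in a domain, 0 of 20 members were inside. A gene and a ZNF gene close to it can share a domain by position alone, and the number of separate stretches is small. The LILR and KIR genes had 0 ZNF starts within 500 kb, with medians of 807 and 673 kb to the nearest one, and yet were inside. The PSG genes lay nearer to ZNF genes (median 510 kb) and were outside. The counts within 500 kb of each member were the same in all 4 libraries.

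**Figure D4:**
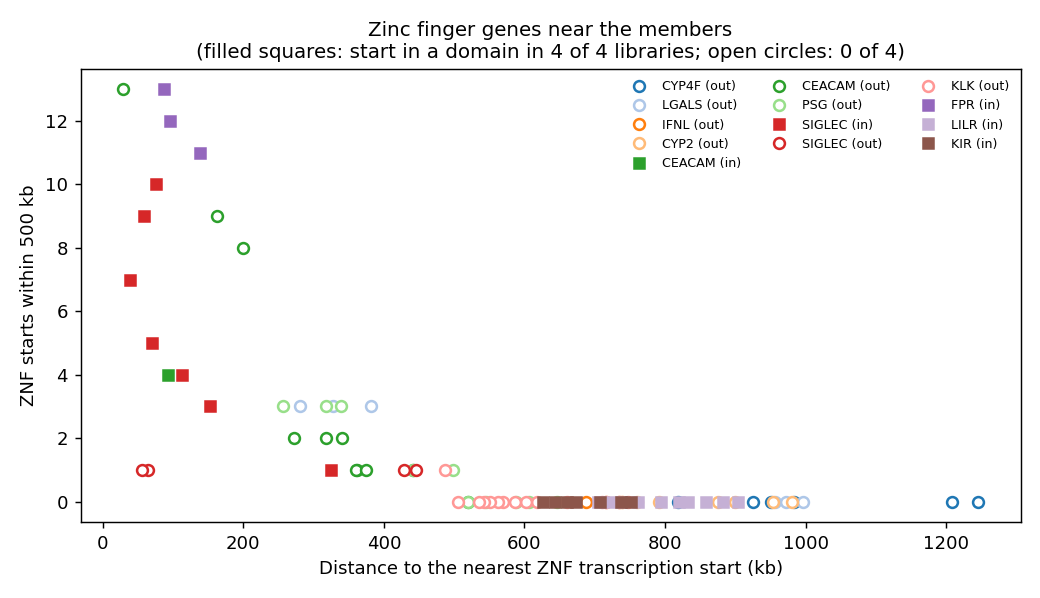
Each symbol is 1 member, plotted by the distance in kb to the nearest ZNF transcription start (horizontal) and the number of ZNF starts within 500 kb (vertical), coloured by family; filled squares started in a domain in all 4 libraries and open circles in none. Filled and open symbols occur both near to ZNF genes (FPR1 and CEACAM20, each with 13) and where none lies within 500 kb (LILR and KIR inside, KLK, CYP2 and CYP4F outside).

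Because reads that map to several places are placed with low mapping quality and those below 1 were removed, the share of each gene's 75-base windows that occur more than once on chromosome 19 was computed. It was 5.07% over the whole chromosome. The median was 4.13% (0.0315% to 26.7%) in the 28 members inside and 1.25% (0% to 85.5%) in the 62 outside, so the ranges overlapped. Outside, the PSG genes had 12.9% to 24.3%, with 10 of 10 above the value of the chromosome, and the IFNL genes had a higher median (22.2% against 18.4%), with 3 of 4 above it. KIR (0.452% to 23.2%, 5 of 7) and LILR (0.747% to 26.7%, 6 of 10) were the most repeated inside. The KLK genes held few repeated windows (0% to 3.48%, 0 of 15), as did the CEACAM genes (0.0315% to 1.45%, 0 of 12). LGALS7 and LGALS7B, whose coding sequences were 99.8% identical, had 85.5% each. IFNL2 and IFNL3, 96.3% identical in coding sequence, had 25.7% and 24.9%. In LGALS7 and LGALS7B most reads of 75 bases could not be assigned to 1 copy. The part of lost reads in the calls was not tested, and domains are called over bins that are far longer than a gene.

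**Figure D5:**
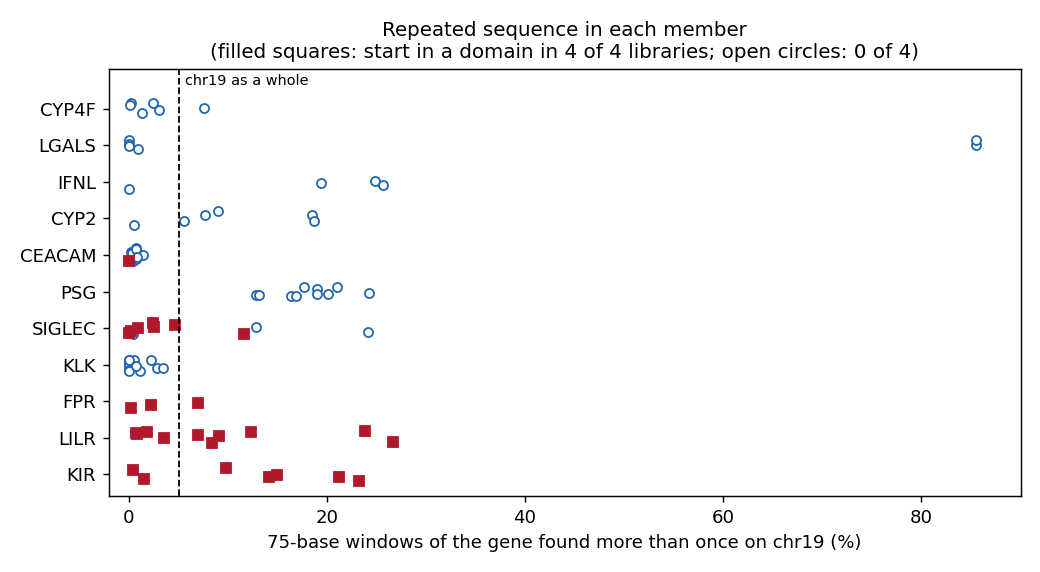
Each symbol is 1 member, plotted by the percent of its 75-base windows that occur more than once on chromosome 19, by family; filled squares started in a domain in all 4 libraries and open circles in none, and the dashed line is the value of the whole chromosome (5.07%). High values occur inside (LILR and KIR, up to 26.7%) and outside (PSG, up to 24.3%, and LGALS7 and LGALS7B at 85.5%).

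Other properties that the rule did not use overlapped between the members inside and outside. The GC content of the 200 kb bin around the start had a median of 46.4% (41.7% to 49.4%) inside and 47.1% (41.7% to 54.2%) outside. On the whole chromosome, the 102 bins in a domain of all 4 libraries had a median of 44.1% and the 188 bins in none 51.3%. The median of the members outside was thus below that of the bins in no domain, and the PSG genes, at a median of 43.0%, were below the median of the bins inside. RefSeq gave an upstream sequence for 73 of the 90 genes. It held a median of 4 CpG in 250 bases inside (n = 25) and 3 outside (n = 48). The median over 35114 RefSeq promoters was 11, above that of the members on both sides. Each member gave only its first listed promoter, while the reference may hold several per gene, so the units differ. The highest counts were outside, in CYP2S1 with 23, CYP4F22 with 17 and KLK7 with 15. The identity of a member's coding sequence to that of its closest relative had a median of 80.5% inside and 80.7% outside. The families with the most alike copies fell on both sides, PSG outside at a median of 94.2% and KIR inside at 90.9%.

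The antibodies served as the only replicates, and the replicate numbers mark them. With the replicate block, in which the libraries of each antibody were compared as a pair by an exact sign-flip test, the paired difference between RAB5A and control was 0 members, 0 Mb in median distance and 0 percentage points in the mean share (p = 1 for each, where the smallest p that 2 pairs allow is 0.5). By neither test can n = 2 per condition reach a conventional threshold of significance.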

How the data were processed

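Domains of H3K9me3 were taken from 4 deposited lists, 1 per library. The authors trimmed 75-nt single reads with Trimmomatic 0.39, aligned them to hg38 with BWA 0.7.17-r1188, marked duplicates with Picard 2.22, removed reads of mapping quality under 1 with SAMtools 1.9, and called domains against input with EDD, library by library (200 kb bins, gap penalty 25, informative bins at least 0.98). The authors deposited coordinates and a score per domain with no stated unit. The lists hold no read counts, so the depth per library, and the precision it gives, is unknown. The labels give 1 input library per condition, so both lists of a condition may rest on the same input. The 2 input libraries were not analysed here.

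Transcription starts were those of GENCODE 44 on the same build. Upstream sequences were placed by RefSeq starts, which differed from these by up to 52237 bases (FPR1). The RefSeq start had the same state as the GENCODE start for all 73 genes that had one. The number of members inside, their median distance and the mean share over families were tested by exact permutation, two-sided, over 6 labellings (Python 3.11.15, NumPy 2.4.6, SciPy 1.17.1). Coding sequences of canonical transcripts were aligned with edlib 1.3.9.post1, in place of the proteins planned. Identity was the share of the longer sequence left after subtracting the edit distance (substitutions, insertions and deletions), so unequal lengths lower it. The same measure was used for the upstream sequences. Placement was tested on 10000 simulated starts. Distances were to be given for members that differed between libraries and for the nearest and farthest of each family; others were added after their values were seen. Equal replicate numbers mark the same antibody, per the labels, and formed pairs in an alternative test. The members and lists were chosen with earlier results of these data known. A gene of a comparison list is not reported here.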

Additional observations from a re-analysis of the deposited data

How the results depend on the processing

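When a gene was placed by body overlap, whole body or any transcript start, and with the lowest-scoring quartile of domains left out, domains closer than 400 kb merged, a minimum length of 1 Mb and each replicate left out, 28 members were inside. Their median distance was 0.575 Mb and the mean family share 33.8%, where the alternative applies; both values were also the lowest and the highest without a replicate. With domains widened by 1 bin of 200 kb, the median distance was 0.375 Mb and the mean family share 39.7%, and with domains trimmed by 1 bin they were 0.775 Mb and 33.0%, since edges moved by construction. Widening added 9 members (KLK8 to KLK14, SIGLEC7 and SIGLEC9) and left 5 families without a member inside, in place of 6, and trimming removed SIGLECL1. The paired fit with the replicate block gave a difference of 0 in each value and changed no call. Of 263 values under alternatives, 7 were marked as moved, each with domains widened or trimmed by 1 bin. The rise to 37 members inside with widening was not marked, since counts were allowed some spread. No direction could reverse, since the main difference between RAB5A and control was 0 and the other values were levels or counts. The difference between RAB5A and control was 0 under each alternative run. The lists hold called domains, the depth is unknown, and 28 members inside stand for 1 domain.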
